A study of Homo sapiens with 18 samples.

Results

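The 8 genes IPO9, WDR7, WDR4, ZKSCAN1, PARD3B, MIX23 (older symbol CCDC58), ELP4 and LCOR were chosen by name because their RNA was much lower after an antisense oligonucleotide (ASO) aimed at AL078604.2, a long non-coding RNA, in MDA-MB-231 as well as in MDA-MB-468. Each gene had 1 feature, a transcript cluster of the array, and these were 8 of the 16098 features that carried a gene symbol. The study measured RNA on 18 Affymetrix Human Gene 2.0 ST arrays, 3 for each of 6 groups. MDA-MB-231 and MDA-MB-468, established triple-negative breast cancer cell lines, were given an anti-AL078604.2 ASO or a control ASO. SKBR3, an established HER2-positive breast cancer cell line, was given an anti-LINC01269 ASO or a control ASO. Every group received its ASO as a GapmeR at 15 nM with TransIT-BrCa for 48 h, so transfection and exposure were common to all groups. The series' text names 1 ASO per target, so the oligonucleotide and its target cannot be told apart. The labels do not say whether replicate arrays came from separate cultures, so the spread between them may be technical.

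A GapmeR has a stretch of DNA between modified ends, and the enzyme RNase H1 cuts RNA that is paired with such DNA. This enzyme works in the nucleus too, where unspliced RNA still holds its introns, so long transcripts offer more sequence to a passing oligonucleotide. Gapmers are known to cut RNAs other than the intended one when enough bases match. ASO sequences were not at hand, so pairing of an ASO with the RNA of any of the 8 genes was not tested. AL078604.2 and LINC01269 had 0 named features each, and the level of either target was not analysed here.

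The 8 genes have unlike known roles. IPO9 is an importin that carries histones into the nucleus. WDR7 is a subunit of rabconnectin-3, which regulates the proton pump of vesicles. WDR4 is the partner of the methyltransferase METTL1, which modifies guanosine in tRNA, and ELP4 is a subunit of Elongator, which modifies uridine in the tRNA anticodon. ZKSCAN1 is a zinc finger protein with a SCAN and a KRAB domain, and LCOR is a corepressor of nuclear receptors. PARD3B is a relative of the polarity scaffold PARD3. MIX23 lies in the intermembrane space of mitochondria and is known from yeast to aid protein import.

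The sequences just before the gene starts are shown for the 3 deepest shared decreases among named features (WDR7, IPO9 and ZKSCAN1) and for MIX23, the lowest in MDA-MB-231, because genes that move together can be set side by side at their promoters. Each is the 250 bases before the gene's start, 5′ to 3′ on the gene's strand, from RefSeq on GRCh38.p14. All 8 genes matched a RefSeq promoter window. Capitals mark matches, on either strand, to 7 motifs: the GC box (GGGCGG), an ETS factor motif (CCGGAAG), the CCAAT box (CCAAT), the E-box (CACGTG), an NRF1-type motif (GCATGCG), a YY1-type motif (AAGATGG) and the TATA box (TATAAA). A match is a description of the letters and not a site.
WDR7, chr18:56651109-56651358, plus strand: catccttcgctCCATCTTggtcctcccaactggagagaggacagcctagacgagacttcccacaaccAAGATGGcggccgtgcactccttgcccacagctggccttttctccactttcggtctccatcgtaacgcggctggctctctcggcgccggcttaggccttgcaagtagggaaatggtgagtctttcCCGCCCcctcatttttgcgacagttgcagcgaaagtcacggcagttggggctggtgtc
IPO9, chr1:201828907-201829156, plus strand: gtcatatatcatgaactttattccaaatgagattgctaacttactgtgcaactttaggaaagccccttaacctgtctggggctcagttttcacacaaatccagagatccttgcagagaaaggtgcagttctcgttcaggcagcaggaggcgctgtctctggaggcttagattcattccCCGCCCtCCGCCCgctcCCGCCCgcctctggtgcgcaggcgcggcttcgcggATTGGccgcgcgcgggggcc
ZKSCAN1, chr7:100015346-100015595, plus strand: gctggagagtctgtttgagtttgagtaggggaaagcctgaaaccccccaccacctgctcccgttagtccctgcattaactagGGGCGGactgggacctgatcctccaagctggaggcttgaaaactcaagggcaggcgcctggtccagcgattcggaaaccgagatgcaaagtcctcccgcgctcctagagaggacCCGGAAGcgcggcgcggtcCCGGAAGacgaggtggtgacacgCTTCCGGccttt
MIX23, chr3:122383232-122383481, minus strand: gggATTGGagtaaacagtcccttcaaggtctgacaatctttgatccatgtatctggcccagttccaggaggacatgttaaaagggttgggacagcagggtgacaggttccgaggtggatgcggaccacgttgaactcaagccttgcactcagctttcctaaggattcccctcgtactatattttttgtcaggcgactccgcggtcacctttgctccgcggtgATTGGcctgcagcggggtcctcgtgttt
In these 4 stretches WDR7 held the GC box and the YY1-type motif, IPO9 the GC box and the CCAAT box, ZKSCAN1 the GC box and the ETS motif, and MIX23 the CCAAT box. Over the full windows of 300 bases, which add 50 bases after the start, the GC box was present for 5 of the 8 genes and in 45% of all 35116 promoter windows. The CCAAT box was present for 3 genes and in 34.6% of all windows, the YY1-type motif for 3 and in 5.84%, the NRF1-type motif for 2 and in 3.91%, and the ETS motif for 1 and in 10.3%. The E-box and the TATA box were found for 0 of the 8 genes, and in 7.26% and 11.5% of all windows. WDR7 and LCOR had 2 windows each, and a gene was counted if either held the motif. The WDR4 window, which held the GC box and the NRF1-type motif, lies inside the gene's RefSeq span and not at the outermost start. No motif was present in all 8 genes.

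Markers of the 3 lines ran partly against the labels. In the control arrays EPCAM, an epithelial adhesion gene known to be low in MDA-MB-231, stood at percentile 99.2 of all features in MDA-MB-231, 99.3 in MDA-MB-468 and 98.9 in SKBR3, and VIM, high in mesenchymal-like lines, reached at most over its 3 features 76.7, 82.4 and 80.5. GRB7, a neighbour of ERBB2 known to be amplified in SKBR3, was at percentiles 81.3, 78.9 and 79.2. RB1, known to be lost in MDA-MB-468, was at 60.5, 24.9 and 48.0, lowest where the label has it so. The mesenchymal genes AXL (83.2, 60.3 and 80.9), ZEB1 (45.9, 33.3 and 43.8) and SNAI2 (78.9, 61.4 and 75.9) were highest in MDA-MB-231, as labelled, but SKBR3 was close. The basal keratin gene KRT5 (73.6, 85.8 and 69.8) was highest in MDA-MB-468, as labelled, but KRT14 (89.2, 79.4 and 72.2) in MDA-MB-231. EGFR (98.2, 98.7 and 99.0) and the epithelial genes CLDN7 (96.9, 97.3 and 96.3) and ESRP1 (98.1, 98.0 and 98.1) were high in all lines. Among further ERBB2 neighbours, ORMDL3 (82.9, 83.7 and 87.1) was highest in SKBR3 and STARD3 (84.9, 83.2 and 83.7) in MDA-MB-231. ERBB2 and CDH1 had no named feature. Of 8 leukocyte, fibroblast and endothelial markers 2 were named, CD14 at 43.7, 43.4 and 35.6 and PECAM1 at 43.2, 39.9 and 32.5. The line names below are therefore those of the labels. Array medians were 5.41 to 5.43 log2 in MDA-MB-231, 5.21 to 5.24 in MDA-MB-468 and 4.56 to 4.63 in SKBR3, so levels are compared only within a line.

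The control levels of all 8 genes were above the median of the features. The percentile of the control mean among all features was highest for IPO9 (97.5 in MDA-MB-231, 97.2 in MDA-MB-468 and 96.6 in SKBR3) and ZKSCAN1 (96.0, 97.5 and 97.4), and lowest for MIX23 (59.3, 73.8 and 65.3). The remaining 5 genes lay between 77.1 and 92.3. All 8 passed the filter on low features, which kept 29855 of 53617 features, and 7 passed a stricter filter, MIX23 being the exception.

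**Figure D1:**
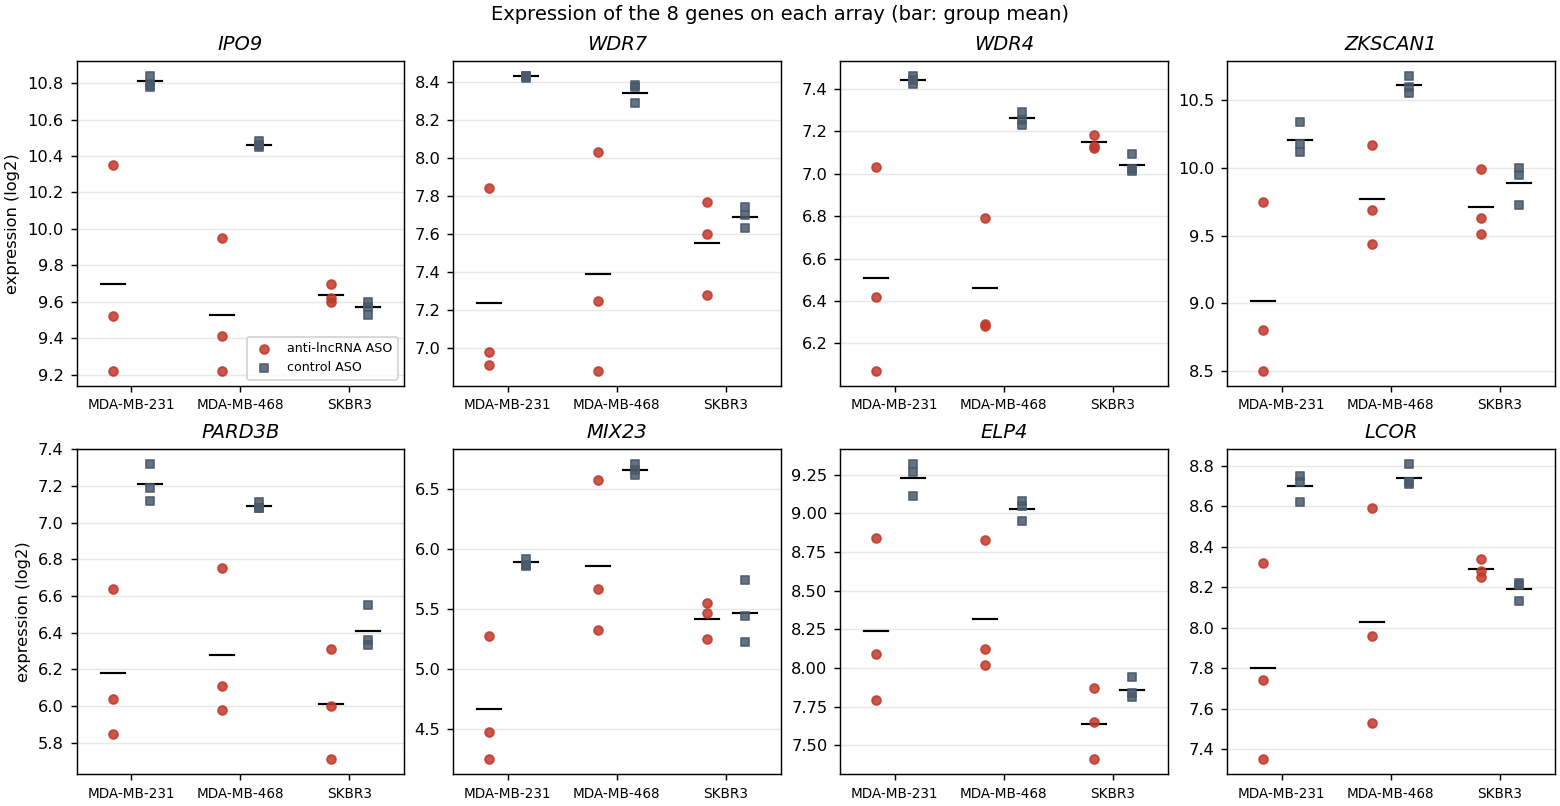
Expression (log2) of each of the 8 genes on all 18 arrays, by labelled line. Circles are arrays given the anti-lncRNA ASO (anti-AL078604.2 in MDA-MB-231 and MDA-MB-468, anti-LINC01269 in SKBR3), squares are control ASO arrays, and bars are group means (n = 3). In MDA-MB-231 and MDA-MB-468 every circle lies below every square for all 8 genes, and the circles are spread far more widely than the squares.

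The values from MDA-MB-231 and MDA-MB-468 chose the genes, so they are described here without a test. Across the 8 genes the fitted log2 difference, ASO minus control, had a median of -1.07 in MDA-MB-231 (range -1.21 to -0.90) and of -0.81 in MDA-MB-468 (range -0.96 to -0.71), against medians of 0.01 and -0.00 over all features tested. The ASO arrays lay below all control arrays for 8 of 8 genes in each line, as they did for 7.87% of all features in MDA-MB-231 and 8.5% in MDA-MB-468, and for 1.35% in both. Nothing is read from these counts, since the same contrasts picked the genes. Whether cells held less of each RNA or the culture held fewer cells with it cannot be told apart in bulk RNA.

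IPO9 spans chr1:201829157-201884291 on the plus strand (GRCh38.p14). In MDA-MB-231 it measured 10.35, 9.52 and 9.22 log2 on the anti-AL078604.2 ASO arrays, against 10.78, 10.79 and 10.84 on the control arrays. In MDA-MB-468 it measured 9.22, 9.41 and 9.95, against 10.45, 10.48 and 10.46 in controls. The control arrays were within 0.1 of each other while the ASO arrays differed by more than 0.7, and the groups stayed apart by at least 0.43. The difference was -1.11 ± 0.204 log2 (SE, n = 3 per group), or 46.4% of control, in MDA-MB-231 and -0.94 ± 0.204, or 52.3% of control, in MDA-MB-468.

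WDR7 spans chr18:56651359-57036606 on the plus strand and had the deepest decrease common to both lines among named features (rank 2 among all features). It measured 7.84, 6.91 and 6.98 on the anti-AL078604.2 ASO arrays of MDA-MB-231, against 8.42, 8.43 and 8.43 in controls. In MDA-MB-468 the ASO arrays gave 6.88, 7.25 and 8.03, against 8.37, 8.38 and 8.29 in controls. Replicate 1 of MDA-MB-231 and replicate 3 of MDA-MB-468 were the ASO arrays nearest to the controls, as for IPO9. The differences were -1.19 ± 0.242 (43.9% of control) and -0.96 ± 0.242 (51.6% of control).

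Both tRNA modification genes were lower. WDR4 lies at chr21:42843094-42892998 on the minus strand, and in MDA-MB-231 it measured 7.03, 6.42 and 6.07 on ASO arrays, against 7.44, 7.42 and 7.46 in controls. The MDA-MB-468 values were 6.28, 6.29 and 6.79, against 7.25, 7.29 and 7.23. Its groups were separated by 0.39 and 0.44, and it stood at 52.4% of control in MDA-MB-231 and 57.4% in MDA-MB-468. ELP4 lies at chr11:31509767-31790324 on the plus strand, and in MDA-MB-231 it measured 8.84, 8.09 and 7.79 on ASO arrays, against 9.27, 9.32 and 9.11 in controls. In MDA-MB-468 it measured 8.02, 8.12 and 8.83, against 8.95, 9.08 and 9.05. ELP4 stood at 50.3% and 61.2% of control, and its ASO replicate 3 in MDA-MB-468 was only 0.13 below the lowest control.

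The transcriptional regulators ZKSCAN1 and LCOR followed the same arrays. ZKSCAN1, at chr7:100015596-100045374 on the plus strand, measured 9.75, 8.80 and 8.50 on the ASO arrays of MDA-MB-231, against 10.18, 10.12 and 10.34 in controls. The MDA-MB-468 values were 9.44, 9.69 and 10.17, against 10.60, 10.55 and 10.68. These were 43.6% and 55.8% of control. A circular RNA is known to be made from ZKSCAN1 exons, and the feature was not resolved into linear and circular RNA. LCOR, at chr10:96832298-96995956 on the plus strand, measured 8.32, 7.74 and 7.35 on the ASO arrays of MDA-MB-231, against 8.75, 8.62 and 8.72 in controls. In MDA-MB-468 it measured 7.53, 7.96 and 8.59, against 8.81, 8.71 and 8.72. LCOR was the least reduced in MDA-MB-231 (53.7% of control), and its difference of -0.72 in MDA-MB-468 was -0.47 without ASO replicate 1 of that line.

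PARD3B and MIX23 are the longest and the shortest of the 8 genes. PARD3B, at chr2:204545475-205620162 on the plus strand, measured 6.64, 6.04 and 5.85 on the ASO arrays of MDA-MB-231, against 7.19, 7.32 and 7.12 in controls. In MDA-MB-468 it measured 5.98, 6.11 and 6.75, against 7.08, 7.11 and 7.08. It stood at 49.0% and 57.0% of control. MIX23, at chr3:122359591-122383231 on the minus strand, measured 5.28, 4.48 and 4.25 on the ASO arrays of MDA-MB-231, against 5.86, 5.92 and 5.87 in controls, and was the lowest there, at 43.1% of control. The MDA-MB-468 values were 5.33, 5.67 and 6.58, against 6.66, 6.71 and 6.62, so that ASO replicate 3 was 0.04 below the lowest control. Its difference of -0.80 in MDA-MB-468 was -0.53 without ASO replicate 1.

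The depth of the decrease differed between ASO arrays, and it did so alike for all 8 genes. In MDA-MB-231 the mean of the 8 differences from the control mean was -0.48 log2 in ASO replicate 1, -1.24 in replicate 2 and -1.49 in replicate 3. In MDA-MB-468 it was -1.19 in ASO replicate 1, -0.96 in replicate 2 and -0.31 in replicate 3. Control arrays lay within 0.01 of the control mean on the same measure. ASO replicate 1 of MDA-MB-231 had the highest value for 8 of 8 genes, and replicate 3 the lowest for 7 of 8, WDR7 being the exception. In MDA-MB-468 ASO replicate 1 was the lowest and replicate 3 the highest for 8 of 8 genes.

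Over these 12 arrays, with each value centred on the mean of its line, each gene's correlation with the mean profile of the 8 was between 0.987 (LCOR) and 0.996 (IPO9). These are descriptions, since the points share arrays and the ASO contrast that chose the genes, and each gene is part of the mean. The same arrays also ranked genes that were higher after the ASO. For the 8 named genes with the largest increase common to both lines, a set chosen after the values were seen (TFPI2, OLR1, ANXA1, ULBP1, TSPAN2, EDN1, CPA4 and SCEL), the mean difference from the control mean was 0.55, 1.26 and 1.57 in ASO replicates 1, 2 and 3 of MDA-MB-231 and 1.26, 0.77 and 0.49 in those of MDA-MB-468.

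**Figure D2:**
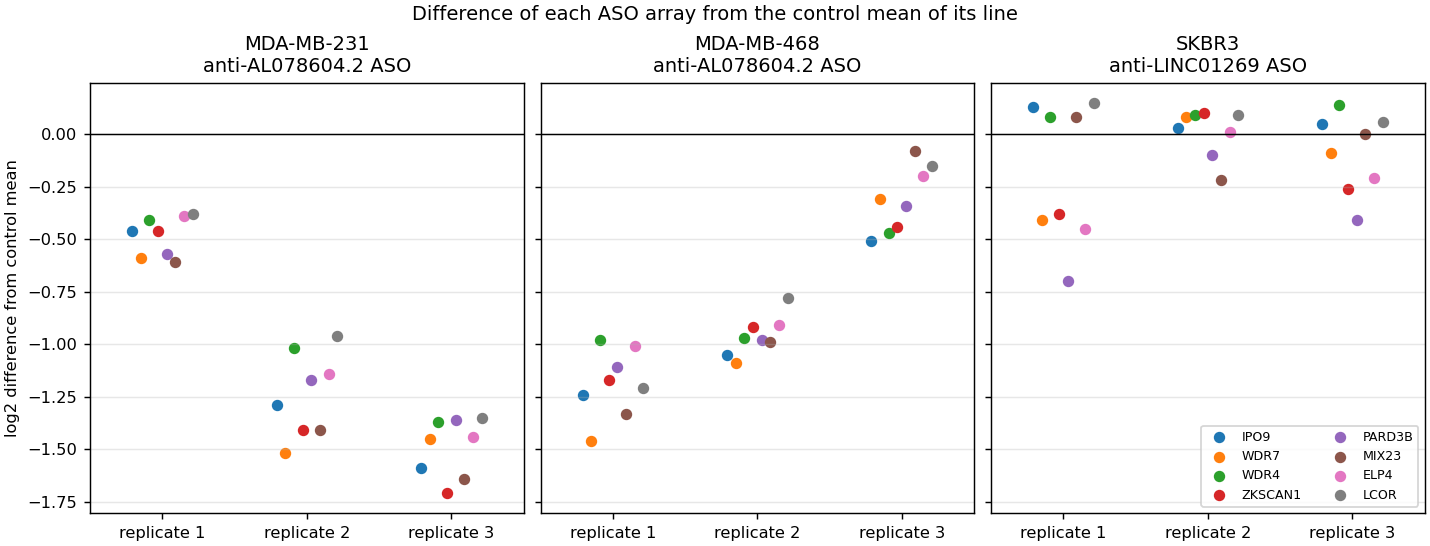
Log2 difference of each ASO array from the control mean of its line, 1 point per gene, for the 8 genes and the 3 ASO arrays of each labelled line. The points of an array form a tight group in MDA-MB-231 and MDA-MB-468, shallow in replicate 1 of MDA-MB-231 (mean -0.48) and replicate 3 of MDA-MB-468 (mean -0.31), and they straddle 0 in SKBR3.

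When named features were ordered by the smaller of their decreases in MDA-MB-231 and MDA-MB-468, the 8 genes held ranks 1 to 6, 9 and 10. LCOR (smaller decrease -0.72) and ELP4 (-0.71) were the last inside. STAG1, a cohesin subunit gene, at rank 7 (-0.74) and RGP1, a membrane traffic gene, at rank 8 (-0.72) were not among the 8. Just outside were MIR4441 (-0.70), the kinase gene MTOR (-0.70), the mitotic kinase gene MELK (-0.64), SLC35D4 (-0.62) and PCMTD1 (-0.62). Of the 21 features down to ELP4, 11 had no symbol.

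SKBR3 arrays did not enter the choice of the genes and were given another ASO, so there the test applies. SKBR3 differed from MDA-MB-231 and MDA-MB-468 in both line and ASO, and the parts of line and ASO cannot be told apart. After the anti-LINC01269 ASO 0 of the 8 genes passed (limma, adjusted p below 0.05), where 0% of all 29855 features did. At an unadjusted p below 0.05 the count was also 0 of 8, where 9.16% of features were. The SE was pooled over lines, so it includes the uneven ASO arrays of MDA-MB-231 and MDA-MB-468. For IPO9 it was 0.204, against SDs of 0.05 and 0.03 on the SKBR3 ASO and control arrays. The 0 of 8 is therefore not read against that share. With only the 6 SKBR3 arrays fitted, the count at an adjusted p below 0.05 was again 0. The share of all features passing in that fit is not given here, so nothing is read from this 0 either. The fitted difference had a median of -0.09 log2 over the 8 genes, against 0.01 over all features, with 5 genes below 0 and 3 above. The ASO arrays lay below all controls for 1 of 8 genes, where 4.26% of features did, and above all controls for 3 of 8, where 7.28% did.

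PARD3B was the gene lying below. It measured 5.71, 6.31 and 6.0 log2 on the anti-LINC01269 ASO arrays, against 6.33, 6.36 and 6.55 in controls, so that the groups were apart by 0.01. Its difference was -0.40 ± 0.202 (SE, n = 3 per group, limma adjusted p = 0.574, 95% interval -0.83 to 0.02), and alternatives gave adjusted p from 0.242 to 1. The genes lying above were IPO9, WDR4 and LCOR. IPO9 measured 9.70, 9.60 and 9.62 on ASO arrays, against 9.53, 9.60 and 9.57 in controls. Its groups touched at the second decimal, and the difference was 0.07 ± 0.204 (limma adjusted p = 0.952, n = 3 per group, 95% interval -0.36 to 0.50). WDR4 measured 7.12, 7.13 and 7.18, against 7.02, 7.09 and 7.01, and LCOR measured 8.34, 8.28 and 8.25, against 8.22, 8.21 and 8.13. These gaps were small, with differences of 0.11 (interval -0.26 to 0.47) and 0.10 (-0.35 to 0.56).

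The other 4 genes overlapped between groups in SKBR3. WDR7 measured 7.28, 7.77 and 7.60 on ASO arrays, against 7.74, 7.63 and 7.70 in controls (difference -0.14, interval -0.65 to 0.37). ZKSCAN1 measured 9.51, 9.99 and 9.63, against 9.73, 10.00 and 9.95 (-0.18, -0.68 to 0.32). ELP4 measured 7.41, 7.87 and 7.65, against 7.81, 7.94 and 7.84 (-0.22, -0.68 to 0.25). For MIX23 the ASO arrays gave 5.55, 5.25 and 5.47, against 5.74, 5.44 and 5.23 in controls (-0.05, -0.61 to 0.52). In SKBR3 the lowest ASO array was replicate 1 for 5 genes, replicate 2 for 2 and replicate 3 for 1. For 7 of the 8 genes the lower bound in SKBR3 was above the fitted difference in MDA-MB-468, and for PARD3B it was not. Nothing is read from this count, since the MDA-MB-468 differences chose the genes and have an SE of their own. The difference between lines was not tested for these genes, because MDA-MB-231 and MDA-MB-468 chose the genes and the ASOs were not the same.

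**Figure D3:**
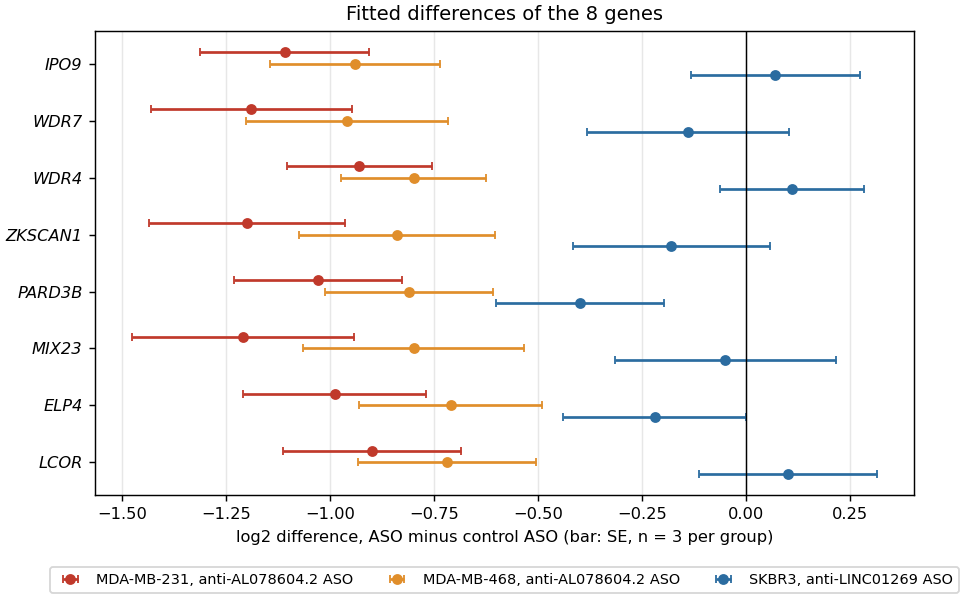
Fitted log2 difference, ASO minus control ASO, for each of the 8 genes in the 3 labelled lines, with bars showing ± 1 SE (n = 3 per group). Values in MDA-MB-231 lie between -1.21 and -0.90, in MDA-MB-468 between -0.96 and -0.71, and in SKBR3 between -0.40 and 0.11.

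The genes beside the 8 on the chromosome did not pass the test, but at the shares of all features that passed few or none could be awaited. For each gene the nearest 2 named and tested genes on either side were taken, 32 in all, and 0 of 32 passed in any comparison (limma, adjusted p below 0.05, where 0.171% of features passed in MDA-MB-231, 0.0067% in MDA-MB-468 and 0% in SKBR3). At an unadjusted p below 0.05 the counts were 1 in MDA-MB-231, 2 in MDA-MB-468 and 4 in SKBR3, where 9.35%, 10.5% and 9.16% of all features were. Their median differences were 0.04, 0.01 and 0.03, against 0.01, -0.00 and 0.01 over all features. The 11 neighbours within 50 kb ranged from -0.18 to 0.18 in MDA-MB-231, from -0.17 to 0.15 in MDA-MB-468 and from -0.08 to 0.44 in SKBR3. IMMP1L, a mitochondrial peptidase gene whose span ends 145 bases before that of ELP4, measured 0.05 ± 0.0934 in MDA-MB-231 and 0.15 ± 0.0934 in MDA-MB-468 (SE, n = 3 per group). NAV1, ending 2188 bases before IPO9, measured -0.03 and 0.05, and SLIT1, an axon guidance gene 2082 bases after LCOR, measured -0.18 and -0.17 (adjusted p = 0.653 and 0.608). The lowest neighbour was NBEAL1, 1320281 bases before PARD3B, with -1.06 ± 0.249 in MDA-MB-231 (adjusted p = 0.103) and -0.43 in MDA-MB-468 (adjusted p = 0.588). Without ASO replicate 1 of MDA-MB-231, NBEAL1 passed (-1.32, adjusted p = 0.0133).

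**Figure D4:**
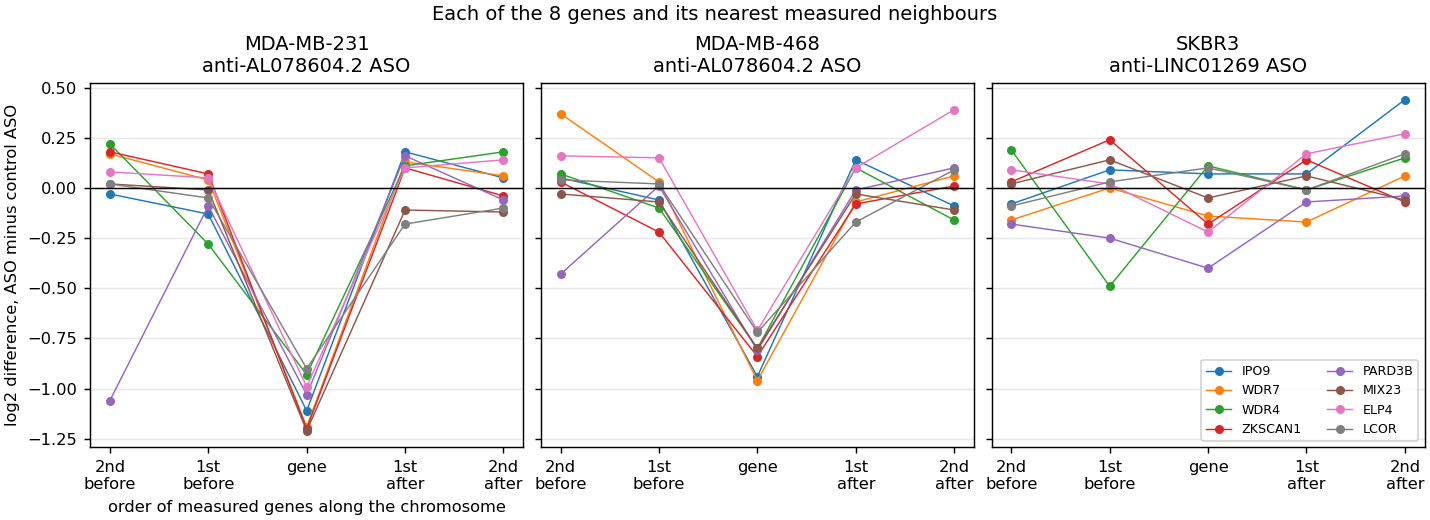
Fitted log2 difference, ASO minus control ASO, of each of the 8 genes (centre) and its nearest 2 named and tested genes on either side, in order along the chromosome, by labelled line. In MDA-MB-231 and MDA-MB-468 each of the 8 genes lies below its neighbours, apart from PARD3B in MDA-MB-231, whose neighbour NBEAL1 is at -1.06. The 8 genes were chosen for their decreases in these lines, so nothing is read from their place below the neighbours.

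Gene length varied widely among the 8. Their RefSeq spans on GRCh38.p14 were 1074.7 kb for PARD3B, 385.2 kb for WDR7, 280.6 kb for ELP4, 163.7 kb for LCOR, 55.1 kb for IPO9, 49.9 kb for WDR4, 29.8 kb for ZKSCAN1 and 23.6 kb for MIX23. Among 9727 protein-coding genes tested, PARD3B stood at percentile 99.9, WDR7 at 98.0, ELP4 at 96.5 and LCOR at 91.8, so 4 of the 8 were in the top of 5 equal bins of span. IPO9 stood at 70.8, WDR4 at 68.0, ZKSCAN1 at 53.4 and MIX23 at 46.5, near the middle. The median span was 109.4 kb for the 8 genes, 26.6 kb for all 9727, and 121.6 kb for the 131 other protein-coding genes that were lower by over 0.3 log2 in both lines. By difference, MIX23 (-1.21), ZKSCAN1 (-1.20) and WDR7 (-1.19) were lowest in MDA-MB-231, and WDR7 (-0.96) and IPO9 (-0.94) in MDA-MB-468. The lowest in MDA-MB-231 thus ranged from 23.6 to 385.2 kb. The shortest bin (0.2 to 8.2 kb) and the next (8.2 to 18.7 kb) held 0 of the 8 each.

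Across all protein-coding genes the share lower by over 0.3 log2 was 10.43% in the longest of the 5 bins (83.5 to 2220.2 kb) and 1.03% in the shortest (0.2 to 8.2 kb) in MDA-MB-231. In MDA-MB-468 these shares were 6.32% and 2.00%, and in SKBR3, under the other ASO, 5.19% and 2.42%. The share lower by over 0.3 in both MDA-MB-231 and MDA-MB-468 was 4.62% in the longest bin and 0.26% in the shortest. Spearman's rank correlation between span and difference, across genes that share arrays and are not replicates, was -0.20 in MDA-MB-231, -0.01 in MDA-MB-468 and -0.14 in SKBR3. The part of gene length in the decrease of the 8 genes was not tested.

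**Figure D5:**
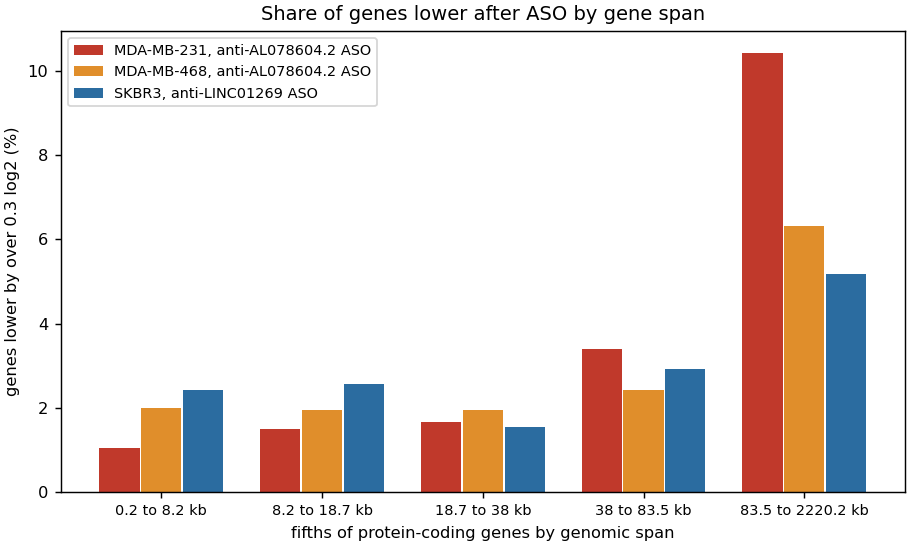
Share of protein-coding genes (%) whose fitted difference, ASO minus control ASO, was below -0.3 log2, by 5 bins of genomic span (1945 or 1946 genes each), in the 3 labelled lines. The longest bin has the highest share in each line, 10.43% in MDA-MB-231, 6.32% in MDA-MB-468 and 5.19% in SKBR3.

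Genes of 8 lists, with 186 tested members in all, were followed beside the 8: pathway partners of several, SCAN domain relatives of ZKSCAN1, and a list of RNA decay and ASO-binding genes that concerns the oligonucleotide and none of the 8. Of these members 0 passed in any of the 3 comparisons (limma, adjusted p below 0.05). Of all features 0.171% passed in MDA-MB-231, 0.0067% in MDA-MB-468 and 0% in SKBR3, so few or none could be awaited at those shares. The medians below stand against 0.01 in MDA-MB-231, 0.00 in MDA-MB-468 and 0.01 in SKBR3 over all named genes. Counts at an unadjusted p below 0.05 stand against 9.35%, 10.5% and 9.16% of all features, in the same order. For IPO9, 25 nuclear transport receptors and Ran cycle genes were tested, with medians of 0.00 in MDA-MB-231, 0.01 in MDA-MB-468 and 0.07 in SKBR3 and with 3, 2 and 4 at an unadjusted p below 0.05. The importin gene IPO11 measured -0.47 ± 0.133 in MDA-MB-231 (adjusted p = 0.186) and -0.24 in MDA-MB-468, and XPO5, an exporter of microRNA precursors, measured -0.02 and -0.23. For WDR4 and ELP4, 35 tRNA modification genes had medians of 0.04, 0.00 and 0.03 in the same order, with 5, 6 and 5 at an unadjusted p below 0.05. CDK5RAP1 measured -0.31 ± 0.1 in MDA-MB-231 and -0.42 ± 0.1 in MDA-MB-468 (adjusted p = 0.258 and 0.189), and CDKAL1, another tRNA methylthiotransferase gene, measured -0.85 ± 0.247 in SKBR3 (adjusted p = 0.383).

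For LCOR, 24 genes of nuclear receptor corepressors and Polycomb repressive complex 2 had medians of -0.00, -0.01 and 0.00, with 7, 7 and 1 at an unadjusted p below 0.05. Those 7 of 24 are a larger share than the 9.35% and 10.5% of all features in MDA-MB-231 and MDA-MB-468, but no member passed after adjustment and the list was not tested as a set. The corepressor subunit genes TBL1XR1 (0.41 ± 0.0931 in MDA-MB-231, adjusted p = 0.0971, and 0.29 in MDA-MB-468) and TBL1X (0.42 and 0.26) were above 0 without passing, and the histone methyltransferase gene EHMT1 measured -0.23 and -0.28. For ZKSCAN1, 35 SCAN domain zinc finger genes had medians of 0.05, 0.03 and 0.02, with 5, 3 and 0 at an unadjusted p below 0.05. ZKSCAN5 measured 0.17 and 0.20 and ZSCAN31 -0.48 and -0.14 in MDA-MB-231 and MDA-MB-468. For PARD3B, 15 polarity genes had medians of 0.01, -0.01 and 0.01 (3, 2 and 1 at an unadjusted p below 0.05), with PARD6A at 0.30 and 0.23 and the junction scaffold gene TJP1 at -0.28 and -0.19.

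For WDR7, only 5 of 24 V-ATPase and rabconnectin genes had a named feature, so most of that list was not measured by name. The 5 tested had medians of -0.13, 0.03 and -0.08 and 0 at an unadjusted p below 0.05 in each line. DMXL1, a relative of WDR7's partner, measured -0.25 ± 0.151 in MDA-MB-231 and 0.08 in MDA-MB-468. For MIX23, 25 genes of mitochondrial intermembrane space proteins had medians of -0.01, 0.03 and 0.02 (2, 3 and 2 at an unadjusted p below 0.05), with the copper chaperone gene COX17 at -0.25 and -0.18. The 22 genes of RNase H enzymes, RNA decay and ASO-binding proteins had medians of 0.04, 0.06 and 0.03 (2, 2 and 1 at an unadjusted p below 0.05). Among them the RNA-binding gene SSB measured 0.11 and 0.24, and the paraspeckle gene PSPC1 -0.07 and -0.13. Counts of passing list members rested on single arrays. Without ASO replicate 1 of MDA-MB-231, 4 of 186 passed (CDK5RAP1 lower, TBL1XR1, TBL1X and DUS4L higher), where 1.78% of all features did. Without ASO replicate 2 of SKBR3, 5 of 186 passed (CDKAL1 and TRMT11 lower, KPNB1, EXOSC2 and EXOSC5 higher), where 0.774% of all features did.

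The named genes whose values over the 12 MDA-MB-231 and MDA-MB-468 arrays were most like the mean profile of the 8, by Pearson correlation after centring on the line, were UBE2K (r = 0.995), MELK (0.993), PTK2 (0.991), SEL1L3 (0.989) and ARHGAP32 (0.986). UBE2K, a ubiquitin-conjugating enzyme gene, measured -0.53 ± 0.282 in MDA-MB-231, -0.43 ± 0.282 in MDA-MB-468 and -1.02 ± 0.282 in SKBR3 (limma adjusted p = 0.368 in SKBR3). MELK measured -0.72, -0.64 and 0.09, and PTK2, the focal adhesion kinase gene, -0.51, -0.39 and -0.27. SEL1L3 measured -0.71, -0.47 and -0.23, and ARHGAP32 -0.63, -0.50 and -0.51. Since the 12 arrays include the ASO contrast that chose the 8 genes, these are descriptions. In SKBR3 0 of the 5 passed, where 0% of all features did, so nothing is read from that count.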

How the data were processed

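The submitters' processing notes name Transcriptome Analysis Console as the authors' software. Its version, the summarization, the normalization and the genome build are not given in the sources used here. Per the range of the deposited values, 0.41 to 13.84, the scale is taken to be log2. Array medians were nearly equal within a line and unequal between lines, so fits compare arrays of a line only. GEO's platform annotation gave 1 symbol to 16098 of 53617 features and none to 37519, which are unnamed here. All 16098 were matched by gene ID to RefSeq (GRCh38.p14), which gave current symbols, spans and neighbours.

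The test covered the 29855 features with a group mean above that group's median in 1 or more groups. Group means of all 18 arrays were fitted with limma 3.58.1 in R 4.3.3 (12 residual and 4.33 prior degrees of freedom, intensity trend). P-values were two-sided with Benjamini-Hochberg adjustment over all tested features and a threshold of 0.05. The SE is therefore pooled over lines, although ASO arrays varied more than control arrays. The procedure was tested on simulated data. Those had independent noise and the same spread for ASO and control arrays, so they do not cover the uneven ASO arrays seen here. The 8 genes, the lists and the tests were chosen with earlier results of these data known. Genes besides the 8 were named by rule: the next 5 in the order of shared decreases, the 5 most like the mean profile, the nearest 2 tested neighbours a side, and per list those passing or else up to 3 with the smallest p. Genes passing only without 1 array, STAG1, RGP1 and the genes with shared increases were named after their values were seen. Medians and main counts of lists and neighbours used 1 feature per gene, the one with the highest mean. Under the alternatives a list gene or neighbour was counted as passing if any of its features passed. Alternatives covered normalization, filter, arrays fitted, trend, array weights, a replicate block and leaving out each array. The number of arrays limits the precision.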

Additional observations from a re-analysis of the deposited data

How the results depend on the processing

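In SKBR3 the count of the 8 genes passing was 0 under all 14 alternatives, leaving out each array included (range 0 to 0). With 1 SKBR3 array left out, 0% to 0.774% of all features passed, so few or none of the 8 could be awaited. The median difference of the 8 genes ranged over the omissions of 1 array from -1.36 to -0.87 in MDA-MB-231, from -1.05 to -0.67 in MDA-MB-468 and from -0.14 to -0.03 in SKBR3. It moved by less than the spread between replicates under all 14 alternatives. For the omissions this was largely fixed in advance, because leaving out 1 of 3 arrays shifts a group mean by less than that spread. The same holds for single genes in MDA-MB-231 and MDA-MB-468, so no stability is read from it. Of the single-gene values under the alternatives 331 kept their direction and side of the threshold or stayed within the spread, and 2 changed sign, both for MIX23 in SKBR3, 0.04 without anti-LINC01269 ASO replicate 2 and 0.09 without control replicate 1 (range over the omissions -0.16 to 0.09). Array weights estimated by limma raised the passing list members to 28 in MDA-MB-231 and 43 in MDA-MB-468, and the passing neighbours to 1 and 5, where 8.08% and 17.4% of all features passed. These weights put 9.62 on ASO replicate 2 of MDA-MB-468, against 0.39 to 0.48 on the other two. Leaving out 1 array gave 0 to 4 list members in MDA-MB-231, 0 to 0 in MDA-MB-468 and 0 to 5 in SKBR3, and 0 to 1 neighbours in MDA-MB-231. Same-numbered ASO and control arrays deviated together by correlations of only -0.12 to 0.10. The labels do not say whether they shared a culture or a day, and these correlations cannot settle it. With the replicate block the medians stayed at -1.07, -0.81 and -0.09 and the counts at 0. The number of arrays, 3 a group, and an SE pooled over lines limit the SKBR3 result, where all 8 of the 95% intervals hold 0.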
